A study of Mus musculus with 6 samples.

Results

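The matrix metalloproteinases (MMPs), the ADAMTS proteases with their ADAMTS-like relatives (ADAMTSL) and the tissue inhibitors of metalloproteinases (TIMPs) were examined in muscle stem cells (MuSCs) of injured mouse muscle. Members were taken by gene symbol, and 51 of the 49671 genes in the files matched: 23 MMP, 19 ADAMTS, 5 ADAMTSL and 4 TIMP genes. MMPs and ADAMTS proteases are zinc-dependent enzymes that cut collagens, proteoglycans and basement membrane proteins outside the cell. TIMPs bind the active site of MMPs and block them, and TIMP3 also blocks several ADAMTS and ADAM proteases. ADAMTSL proteins share the ancillary domains of the ADAMTS family but lack the protease domain, and several of them bind fibrillin microfibrils. In regenerating muscle these genes are known from satellite cells, fibro-adipogenic progenitors and infiltrating leukocytes, and their products open the matrix through which myogenic cells migrate.

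The mice were female C57BL/6 animals of 4 to 6 months. Both tibialis anterior muscles were injured with 50 µL of 1.2% barium chloride, a myotoxic salt that kills myofibers, and the muscles of 1 mouse were pooled for sorting at day 3. Mice received a daily intraperitoneal dose of 100 ng resolvin D1 (RvD1), a specialized pro-resolving lipid mediator made from docosahexaenoic acid, or its ethanol vehicle, and each group had 3 libraries. Injury was shared by both groups, so the comparison asks how RvD1 altered injured MuSCs and contains no uninjured state. The sort took cells positive for CXCR4 with intermediate integrin β1 and negative for erythroid, leukocyte and Sca-1 markers. The labels also list CD31 among the negative markers, whereas the study's methods do not.

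Library totals ran from 16148026 to 28149176 expected counts. The 12 markers of muscle stem cells and myoblasts were all detected and summed to 3363 to 4395 TPM (transcripts-per-million, a level scaled by transcript length and library depth). RvD1 replicate 1 stood apart. Its summed TPM of 12 fibro-adipogenic progenitor markers was 1480, against 578 and 811 in RvD1 replicates 2 and 3 and 661 to 708 in the vehicle group. The 8 pericyte and smooth muscle markers summed to 630 TPM there, against 310 to 461 in the other libraries. Of all 14494 genes that passed the filter on low counts, 30.6% were highest in RvD1 replicate 1, and of the 34 members that passed it, 24 (70.6%) were. Values without that library are given beside the results it moved most. In sorted bulk samples, fewer cells of a type and less RNA per cell cannot be told apart.

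A group of 10 MMP genes lies together on chromosome 9 between 7272514 and 7699585 (GRCm38), a stretch of 427 kb that holds the collagenase, stromelysin and macrophage elastase genes. Of these 10, only Mmp3 and Mmp13 had a mean of 10 or more counts, and 3 (Mmp1b, Mmp7 and Mmp20) had no counts in any library. Promoters of RefSeq (GRCm38.p6), each running from 250 bases before to 50 after a transcription start, were found for 36 of the 51 members. The others are Mmp2, Mmp9, Mmp16, Mmp17, Mmp19, Adamts4, Adamts5, Adamts6, Adamts7, Adamts8, Adamts10, Adamts15, Adamts16, Adamts19 and Adamtsl1. The promoters were searched for the AP-1 motif TGACTCA or TGAGTCA, which are reverse complements, so that both strands were covered. The motif was present in 7 of the 10 cluster members and in 0 of the 26 other members with an entry, against 5.95% of the 27025 genes with a promoter (5.2% of all 32851 promoters). Mmp12 and Mmp7 each have a second promoter entry, which does not hold it. The windows are shown because the motif was a feature that the choice by symbol did not use, 5′ to 3′ on the strand of the gene, with the motif in capitals. They lie at chr9:7272467-7272497 (Mmp13, plus strand), chr9:7347318-7347348 (Mmp12, plus), chr9:7388101-7388131 (Mmp1b, minus), chr9:7445764-7445794 (Mmp3, plus), chr9:7464056-7464086 (Mmp1a, plus), chr9:7502267-7502297 (Mmp10, plus) and chr9:7692015-7692045 (Mmp7, plus).
Mmp13: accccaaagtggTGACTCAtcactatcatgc
Mmp12: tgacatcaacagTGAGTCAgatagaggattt
Mmp1b: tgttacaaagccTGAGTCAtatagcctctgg
Mmp3: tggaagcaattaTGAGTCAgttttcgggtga
Mmp1a: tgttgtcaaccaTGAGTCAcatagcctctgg
Mmp10: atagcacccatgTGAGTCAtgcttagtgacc
Mmp7: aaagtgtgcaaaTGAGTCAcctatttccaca

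Members holding the motif were measured at different levels. Mmp3 and Mmp13 averaged 7.30 and 5.55 TPM over the 6 libraries, while Mmp1b and Mmp7, which hold it too, were at 0 in all of them. Of the 21 tested members with a promoter entry, 2 (9.52%) held the motif. The 3 members with the smallest p in the comparison of RvD1 with vehicle, Adamtsl3, Mmp19 and Mmp17, lie outside the cluster. Mmp19 and Mmp17 had no promoter entry, so only Adamtsl3 could be searched for the motif. The 250 bases before the start of Adamtsl3, at chr7:82335444-82335693 on the plus strand, hold no such motif and are shown beside those of Mmp13, at chr9:7272264-7272513 on the plus strand, with the motif of the latter in capitals.
Adamtsl3: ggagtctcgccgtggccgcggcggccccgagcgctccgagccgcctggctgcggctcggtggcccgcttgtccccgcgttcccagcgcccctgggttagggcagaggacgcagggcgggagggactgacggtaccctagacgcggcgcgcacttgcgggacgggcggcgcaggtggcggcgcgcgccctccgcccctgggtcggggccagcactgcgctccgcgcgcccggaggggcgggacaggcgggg
Mmp13: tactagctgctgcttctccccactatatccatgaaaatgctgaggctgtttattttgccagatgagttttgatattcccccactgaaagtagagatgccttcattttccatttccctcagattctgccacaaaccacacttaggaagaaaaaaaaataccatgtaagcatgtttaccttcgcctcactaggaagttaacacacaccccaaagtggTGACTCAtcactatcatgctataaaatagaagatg

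The 34 members with a mean of 10 or more counts were also exactly those that passed the filter, comprising 11 MMP, 14 ADAMTS, 5 ADAMTSL and 4 TIMP genes. A pair of inhibitors, Timp2 and Timp1, was the most abundant. Timp2 averaged 390 TPM, Timp1 229 and Timp3 72.6, and the leading proteases were Adamts4 (82.1 TPM), Mmp14 (75.0), Adamts1 (58.9) and Mmp2 (56.7). Mmp11 followed with 28.1 and Adamts14 with 14.4, and every other member averaged 8.20 TPM or less. A single gene carried much of each family's summed TPM: Timp2 56.4% of the TIMP sum, Adamtsl1 43.4% of the ADAMTSL sum, Adamts4 42.3% of the ADAMTS sum and Mmp14 38.2% of the MMP sum.

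**Figure D1:**
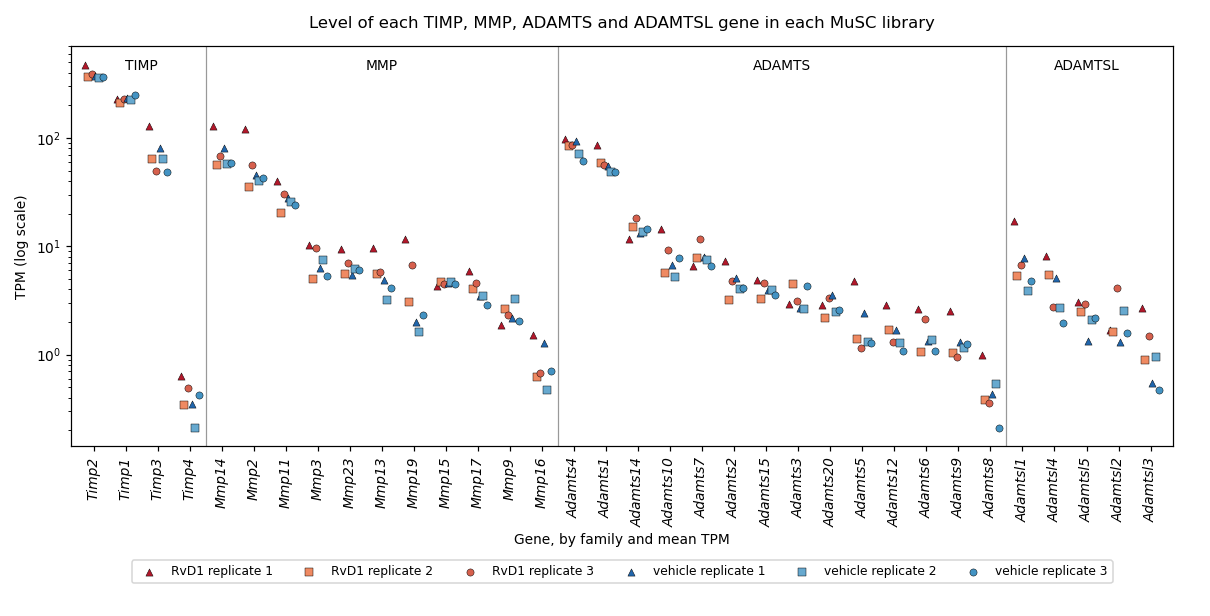
TPM on a log axis of the 34 tested genes in each of the 6 libraries, grouped by family and ordered by mean TPM; red symbols are RvD1 and blue symbols vehicle libraries. Levels ran from 390 TPM on average for Timp2 to 0.408 for Timp4, and the dark red triangle (RvD1 replicate 1) lies on top for most genes.

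Another 12 members (8 MMP and 4 ADAMTS) had counts but a mean under 10. They held 168.75 counts in all, with at most 13 in a library and a mean of at most 0.312 TPM. Mmp28 (epilysin) had 5, 7 and 9 counts with RvD1 and 9, 4 and 8 with vehicle. Adamts17 had 6, 3 and 13 against 6, 2 and 12, and Adamts16 had 12, 2 and 8 against 0, 6 and 5. The raw counts of the groups overlapped for all 3 of these genes. Mmp8 and Mmp12, the neutrophil collagenase and macrophage elastase, averaged 1.67 and 1.17 counts; they are named here after their values were seen. The 5 members without any count were Mmp1b, Mmp7, Mmp20, Mmp21 and Adamts19, and a count of 0 over the 6 libraries allows a level of up to 0.025 CPM (counts-per-million). That limit covers counting error only.

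RvD1 was compared with vehicle by edgeR's quasi-likelihood test on the expected counts. With Benjamini-Hochberg adjustment over the 14494 genes, 0 members and 0 genes in all (0% called) passed at 0.05, the lowest adjusted value being 0.971. DESeq2 and limma-voom also made 0 calls among all genes. Below an unadjusted p of 0.05, edgeR placed 5 of the 34 members (14.7%), all higher with RvD1, against 3.47% of all genes in either direction and 1.83% higher. DESeq2 placed 5 members there (14.7%, against 3.27% of all genes) and limma-voom without surrogate variables 4 (11.8%, against 3.33%). After surrogate variables were removed, limma-voom placed 12 of 46 there (26.1%, against 11.2% of all genes), 1 of them lower. That removal leaves the test with too many degrees of freedom. The 46 also include members with a mean under 10 counts. With no filter on low counts, edgeR called 12 of 26641 genes (0.045%), among them 1 member, Mmp19, with an adjusted p of 0.0132 that was 0.238 to 1.00 in its other alternatives. Groups did not overlap for 8 members (23.5%, against 9.62% of all genes). The 3 RvD1 libraries lay wholly above the 3 vehicle libraries for 7 members (20.6%, against 4.8% of all genes) and wholly below for 1 (against 4.83%). The fitted log2 fold change, RvD1 over vehicle, was above 0 for 30 of 34 members, against 53.5% of all genes, with a median of 0.30 for members and 0.01 for all genes. These counts also moved with single libraries. Without RvD1 replicate 2, 11 of 35 members (31.4%, against 6.83% of all genes) had an unadjusted p under 0.05, and the groups of 17 (48.6%, against 23.3%) did not overlap. Without RvD1 replicate 1, 3 of 35 members (8.57%) had such a p, against 4.33% of all genes, and without vehicle replicate 2 again 3 of 35, against 1.90%. On TPM the groups of 5 members did not overlap (14.7%, against 11.4% of all genes): Mmp13, Mmp17, Mmp19, Adamts1 and Adamtsl5. Members are not replicates, and their shared direction rests on the same 6 libraries.

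The higher member values were concentrated in 1 library. RvD1 replicate 1 was above every vehicle library for 24 of 34 members (70.6%, against 37.0% of all genes), and the median member was at 1.66 times its vehicle mean there. RvD1 replicate 3 was above every vehicle library for 18 members (52.9%, against 29.4% of all genes), with a median of 1.08 times. RvD1 replicate 2 was so for 10 members (29.4%, near the 23.5% of all genes), with a median of 0.972 times, and 20 members lay under their vehicle mean. Without RvD1 replicate 1, 20 of the same 34 members had a log2 fold change above 0, against 50.3% of all genes, and their median was 0.03. By family, the median log2 fold change went from 0.36 to 0.03 for MMPs, from 0.23 to 0.06 for ADAMTS, from 0.61 to 0.43 for ADAMTSL and from -0.02 to -0.19 for TIMPs.

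**Figure D2:**
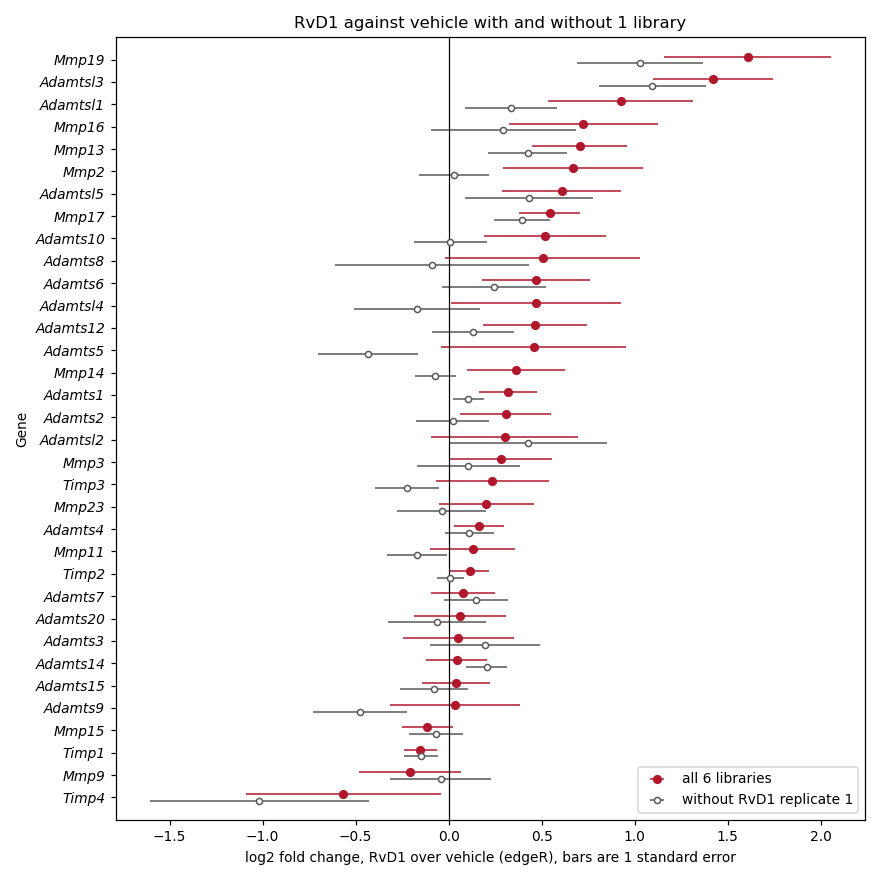
Log2 fold change of RvD1 over vehicle with 1 standard error for the 34 tested genes, from all 6 libraries (red) and without RvD1 replicate 1 (grey, open). With all libraries 30 of 34 lie above 0; without that library 20 do, and Mmp19 and Adamtsl3 stay farthest to the right.

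Among secreted MMPs, Mmp19, an MMP that cuts basement membrane components, had the largest log2 fold change of the 34 tested members, 1.61 (SE 0.45, edgeR unadjusted p = 0.00609). Its normalised CPM, given here and below in the order of replicates 1, 2 and 3, were 20.8, 5.21 and 11.8 with RvD1 and 4.09, 3.22 and 5.05 with vehicle. The groups did not overlap, although RvD1 replicate 2 was just above the highest vehicle library. Without RvD1 replicate 1 the log2 fold change was 1.03 (SE 0.34, unadjusted p = 0.0129). Mmp19 lies at chr10:128790910-128800824 on the plus strand, and its exons overlap those of Tmem198b and Gm47093 on the minus strand. The library kit does not mark strand, and Mmp19 had non-whole expected counts in all 6 libraries, so reads of the overlapping genes cannot be told apart with certainty.

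Mmp13, collagenase 3, at chr9:7272514-7283331, is the cluster gene whose promoter motif is shown above. It measured 14.9, 9.03 and 9.04 CPM with RvD1 and 7.93, 5.40 and 6.90 with vehicle. All RvD1 libraries were above all vehicle libraries, with a log2 fold change of 0.70 (SE 0.25, edgeR unadjusted p = 0.022), and the value without RvD1 replicate 1 was 0.42 (unadjusted p = 0.0735). Its neighbour Mmp3, stromelysin 1, which also carries the motif, overlapped between groups at 5.35 to 10.4 CPM with RvD1 and 6.03 to 8.33 with vehicle.

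Mmp2, the gelatinase that cuts denatured and basement membrane collagen, had 150, 41.5 and 72.0 CPM with RvD1 and 56.7, 56.6 and 52.8 with vehicle. RvD1 replicate 1 was the highest and RvD1 replicate 2 the lowest of the 6 libraries, so the groups overlapped. Its log2 fold change was 0.67 (SE 0.38) with all libraries and 0.03 without RvD1 replicate 1. Mmp11, stromelysin 3, had 28.9, 15.4 and 18.8 CPM with RvD1 and 20.2, 20.9 and 16.5 with vehicle. Its RvD1 libraries likewise spanned the vehicle range, with a log2 fold change of 0.13 (SE 0.23) that was -0.17 (SE 0.16) without RvD1 replicate 1. Mmp9, the other gelatinase, was low at 2.38 TPM and had a log2 fold change of -0.21 (SE 0.28).

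Membrane-anchored MMPs gave 1 member with an unadjusted p under 0.05. Mmp17, which is tethered to the membrane by a glycolipid anchor, had 22.1, 16.1 and 17.3 CPM with RvD1 and 13.8, 12.5 and 11.8 with vehicle (chr5:129584169-129611099). The groups did not overlap, and its RvD1 libraries were closer to each other than those of Mmp19. The log2 fold change was 0.54 (SE 0.16, edgeR unadjusted p = 0.00928) and 0.40 without RvD1 replicate 1 (unadjusted p = 0.0247). Mmp16, a transmembrane MMP at 0.877 TPM, had 3.30, 1.57 and 1.66 CPM against 1.49, 1.49 and 0.98. These CPM did not overlap but nearly touched, whereas in TPM (1.51, 0.62 and 0.68 against 1.28, 0.47 and 0.70) the groups overlapped. Its log2 fold change was 0.72 (SE 0.40, unadjusted p = 0.104) on counts, 0.29 (SE 0.39) without RvD1 replicate 1 and 0.09 on log2(TPM + 1).

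Mmp14, the membrane MMP that activates pro-MMP2 together with TIMP2, had 186, 85.7 and 95.5 CPM with RvD1 and 108, 88.6 and 89.1 with vehicle. The RvD1 libraries lay on both sides of the vehicle range. With all libraries the log2 fold change was 0.36 (SE 0.26), and it was -0.07 (SE 0.11) without RvD1 replicate 1. Mmp15 and Mmp23, the remaining membrane-anchored members, had log2 fold changes of -0.12 (SE 0.14) and 0.20 (SE 0.25), and of -0.07 and -0.04 without RvD1 replicate 1.

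**Figure D3:**
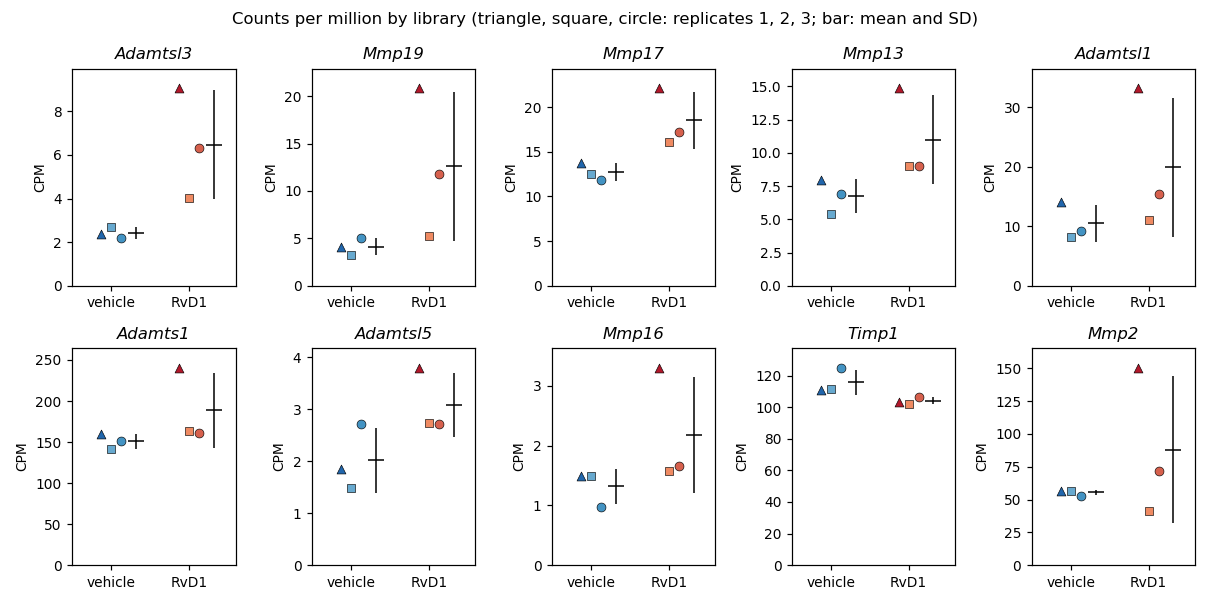
CPM in each library (linear axis from 0) for the 9 members with an unadjusted p under 0.05 or groups that did not overlap, and for Mmp2; triangles, squares and circles are replicates 1, 2 and 3, and the bar gives mean and SD (n = 3). Timp1 was lower with RvD1, and RvD1 replicate 1 was the highest library in the 9 other panels.

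No ADAMTS member had an unadjusted p under 0.05, although all 14 had a log2 fold change above 0, which for 6 was beyond its SE. Among the proteoglycan-cutting members, Adamts1 had 241, 164 and 161 CPM with RvD1 and 160, 142 and 151 with vehicle. Its groups did not overlap, but RvD1 replicates 2 and 3 were just above vehicle replicate 1. The log2 fold change was 0.32 (SE 0.16, edgeR unadjusted p = 0.0699), and 0.11 without RvD1 replicate 1. Adamts4, an aggrecanase, had 245, 223 and 219 CPM against 246, 198 and 170, and vehicle replicate 1 was the highest library (log2 fold change 0.16, SE 0.13). Adamts5, the other main aggrecanase, lies next to Adamts1 on chromosome 16, both within 108 kb. It had 29.9, 9.31 and 7.38 CPM with RvD1 and 15.98, 9.14 and 8.91 with vehicle. Only RvD1 replicate 1 was above the vehicle range, and the log2 fold change of 0.46 (SE 0.50) was -0.43 (SE 0.27) without it. Adamts8, Adamts9, Adamts15 and Adamts20 ranged from 0.03 to 0.50, each within its SE, and from -0.48 to -0.06 without RvD1 replicate 1.

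The procollagen N-proteinases, which trim the amino end of fibrillar procollagens, were Adamts2, Adamts3 and Adamts14. Adamts14, the most abundant of them, had 35.4, 47.8 and 56.3 CPM with RvD1 and 42.4, 45.2 and 47.6 with vehicle. RvD1 replicate 1 was here the lowest of the 6 libraries and RvD1 replicate 3 the highest. Their log2 fold changes were 0.04 (SE 0.16) for Adamts14, 0.31 (SE 0.24) for Adamts2 and 0.05 (SE 0.30) for Adamts3. In the fit without RvD1 replicate 1 they were 0.20, 0.02 and 0.20. Adamts7 and Adamts12, which cut cartilage oligomeric matrix protein, had values of 0.08 (SE 0.17) and 0.46 (SE 0.28). Adamts10, which binds fibrillin, and its close relative Adamts6 had values of 0.52 (SE 0.33) and 0.47 (SE 0.29). Without RvD1 replicate 1 the value was 0.0087 for Adamts10, 0.24 for Adamts6, 0.13 for Adamts12 and 0.15 for Adamts7.

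ADAMTSL genes had the largest family median. Adamtsl3, or punctin 2, at chr7:82335694-82614450, had the smallest p of the tested members. It measured 9.05, 4.03 and 6.32 CPM with RvD1 and 2.35, 2.70 and 2.17 with vehicle, so each RvD1 library was above the vehicle range on that scale. In TPM it had 2.67, 0.90 and 1.47 against 0.55, 0.96 and 0.47, where RvD1 replicate 2 was below vehicle replicate 2 and the groups overlapped. The mean levels were 6.47 ± 2.51 and 2.41 ± 0.269 CPM (SD, n = 3). The log2 fold change was 1.42 (SE 0.32, edgeR unadjusted p = 0.00175) with all libraries and 1.09 (SE 0.29, unadjusted p = 0.00357) without RvD1 replicate 1. Its level was low, at 1.17 TPM.

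Adamtsl1, or punctin 1, the most abundant ADAMTSL gene at 7.63 TPM, had 33.1, 11.03 and 15.5 CPM with RvD1 and 13.997, 8.22 and 9.23 with vehicle. The groups overlapped, as RvD1 replicate 2 was below vehicle replicate 1. The log2 fold change was 0.92 (SE 0.39, edgeR unadjusted p = 0.042) and 0.34 without RvD1 replicate 1 (unadjusted p = 0.205). Adamtsl5 had 3.80, 2.75 and 2.72 CPM against 1.86, 1.49 and 2.72, and its groups were separated by less than the rounding of these values. Its log2 fold change was 0.61 (SE 0.32, unadjusted p = 0.0896). Adamtsl4, a fibrillin-binding member, had 17.2, 6.64 and 6.21 CPM against 11.3, 5.81 and 4.67. The groups overlapped, and the log2 fold change of 0.47 (SE 0.46) was -0.17 without RvD1 replicate 1. Adamtsl2, another microfibril-associated member, had a log2 fold change of 0.30 (SE 0.39).

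TIMP genes had the family median closest to 0. Timp1, the inducible inhibitor of secreted MMPs, was the 1 member whose RvD1 libraries were all lower, at 104, 102 and 107 CPM against 111, 112 and 125. Its log2 fold change was -0.15 (SE 0.09, edgeR unadjusted p = 0.12) with all libraries and -0.15 without RvD1 replicate 1. In TPM the groups overlapped, at 212 to 230 with RvD1 and 223 to 249 with vehicle. Timp2 had 1013, 802 and 853 CPM against 842, 842 and 783, and the groups overlapped (log2 fold change 0.11, SE 0.10). Timp3, the matrix-bound inhibitor, had 332, 177 and 135 CPM against 222, 184 and 142. RvD1 replicate 1 was highest and RvD1 replicate 3 lowest, and the log2 fold change of 0.24 (SE 0.30) was -0.22 (SE 0.17) without RvD1 replicate 1. Timp4 was near the detection limit, at 0.34 to 0.64 TPM with RvD1 and 0.21 to 0.42 with vehicle. Its direction depended on the unit, with a log2 fold change of -0.57 (SE 0.52) on counts and 0.47 on log2(TPM + 0.1).

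Protease and inhibitor sums were set side by side in each library. MMP genes summed to 344, 144 and 197 TPM with RvD1 and 185, 154 and 154 TPM with vehicle. TIMP genes summed to 832, 643 and 672 TPM against 687, 646 and 667. The ratio of the TIMP to the MMP sum was 2.42, 4.47 and 3.41 with RvD1 and 3.73, 4.20 and 4.33 with vehicle. RvD1 replicate 1 had the lowest ratio and RvD1 replicate 2 the highest, so the groups overlapped. ADAMTSL genes summed to 32.7, 15.7 and 18.0 TPM with RvD1 and 16.1, 12.1 and 10.97 with vehicle, where RvD1 replicate 2 lay below vehicle replicate 1. ADAMTS genes summed to 250, 189 and 205 TPM against 199, 165 and 158, again with overlap.

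**Figure D4:**
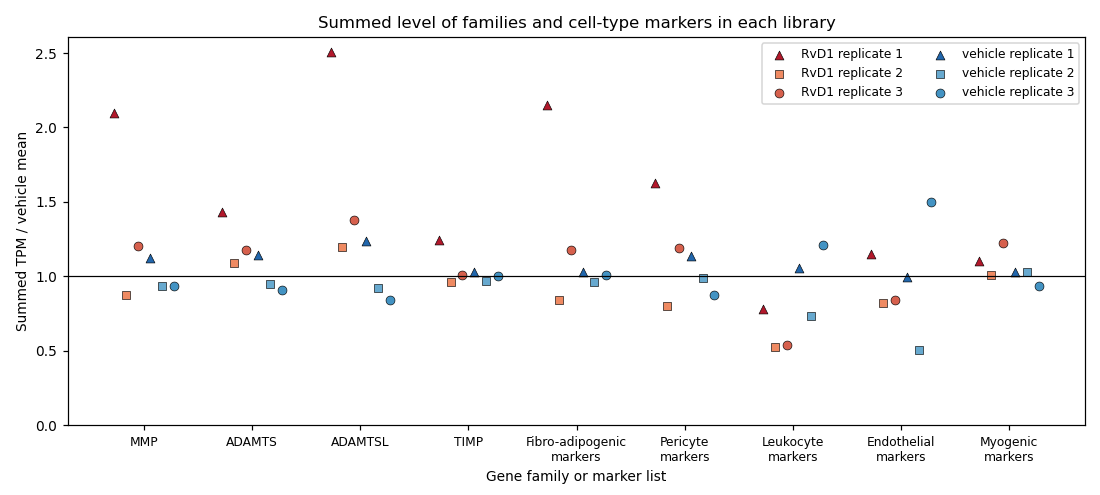
Summed TPM of each family and of 5 cell-type marker lists in each library, divided by the mean of the 3 vehicle libraries (line at 1). RvD1 replicate 1 is the highest library for all 4 families and for the fibro-adipogenic (1480 TPM) and pericyte (630 TPM) markers, and the 3 RvD1 libraries lie low for leukocyte markers (51.2 to 75.9 TPM).

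The sums of some marker lists of other cells were also highest in RvD1 replicate 1. Of the 12 fibro-adipogenic markers, 9 had a higher mean TPM with RvD1, as did 69.0% of all genes tested. RvD1 replicate 1 was the highest library for 8 of them and for 6 of the 8 pericyte markers. Of the 12 muscle stem cell and myoblast markers, 11 had a higher mean with RvD1 and 6 were highest in RvD1 replicate 1. The share of all genes highest in that library was taken in CPM only, at 30.6%. The 6 tendon and Schwann cell markers all had a higher mean with RvD1 and summed to 202, 102 and 177 TPM against 117, 113 and 124. Dcn, a fibroblast proteoglycan gene, had 450, 182 and 284 TPM with RvD1 and 196, 203 and 225 with vehicle. Col1a1, another abundant matrix gene, had 347, 92.6 and 192 TPM against 118, 118 and 142. Pdgfra was low, at 3.48, 2.67 and 3.55 TPM against 1.57, 2.51 and 2.52. Ly6a, the gene of the sort marker Sca-1, was lower with RvD1, at 25.4, 22.4 and 17.25 TPM against 39.7, 26.3 and 30.3. The part of these transcripts in the protease values was not tested. Macrophage and leukocyte markers ran the other way, with 2 of 18 higher in mean with RvD1 and sums of 51.2 to 75.9 TPM against 71.3 to 117. Endothelial markers summed to 17.8 to 25.0 TPM with RvD1 and 10.9 to 32.6 with vehicle. Neutrophil markers summed to at most 2.35 TPM, and 6 of the 11 (S100a9, Ly6g, Elane, Ngp, Retnlg and Ltf) were at 0 in every library.

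Other genes of the same proteolytic system were taken from 5 lists of 67 genes, of which 54 were tested. With edgeR and Benjamini-Hochberg adjustment, 0 had an adjusted p under 0.05. Unadjusted, 6 were under 0.05, all higher with RvD1 (against 3.47% of all genes in either direction and 1.83% higher). In CPM the groups did not overlap for 2 genes higher with RvD1, Nid1 and Adam23 (against 4.8% of all genes). They also did not overlap for 1 gene lower with RvD1, Cd63 (against 4.83%). Positive log2 fold changes were found for 46, against 53.5% of all genes, with a median of 0.21. Without RvD1 replicate 1 they were found for 27, against 50.3% of all genes, with a median of 0.0034. Among 24 matrix substrates, 23 were above 0 with all libraries and 12 without RvD1 replicate 1. Fn1 (fibronectin) had 121, 54.9 and 101 TPM against 58.3, 57.0 and 57.1. RvD1 replicate 2 was below the vehicle libraries, and the log2 fold change was 0.66 (SE 0.22, unadjusted p = 0.0141) and 0.44 (unadjusted p = 0.0299) without RvD1 replicate 1. Nid1 (nidogen 1, a basement membrane linker) had 52.3, 30.7 and 36.9 TPM against 27.8, 25.1 and 26.1, without overlap, and a log2 fold change of 0.42 (SE 0.14, unadjusted p = 0.0156), which was 0.24 (unadjusted p = 0.0195) without that library. Col3a1 and Col1a2, the most abundant substrates at 530 and 407 TPM, had log2 fold changes of 0.13 (SE 0.19) and 0.19 (SE 0.17), and of -0.14 and -0.02 without it.

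Among 9 tested activators and their regulators, 8 had a log2 fold change above 0, and 6 without RvD1 replicate 1. Pcsk5, a proprotein convertase, had a value of 0.89 (SE 0.36, edgeR unadjusted p = 0.0355), which was 0.54 (unadjusted p = 0.135) without RvD1 replicate 1. Serpine2, an inhibitor of plasminogen activators, had 0.25 (SE 0.18), and 0.04 without it. Plaur, the urokinase receptor, and Furin, a convertase that activates membrane MMPs, were the most abundant at 98.8 and 59.0 TPM, with values of -0.01 (SE 0.14) and 0.02 (SE 0.10). Of 9 cell-surface and extracellular regulators, 5 were above 0, and 3 without RvD1 replicate 1. Thbs2 (thrombospondin 2, which binds MMP2) had a value of 0.60 (SE 0.26, unadjusted p = 0.0465), and 0.32 (unadjusted p = 0.156) without that library. Reck, a membrane-anchored MMP inhibitor, had 0.56 (SE 0.29), and 0.25 without it. Cd63, a TIMP1-binding tetraspanin at 3199 TPM, had -0.13 (SE 0.08). Its groups did not overlap in CPM, where RvD1 was lower, but overlapped in TPM. Sparc, a collagen-binding matricellular protein gene at 1205 TPM, had 0.23 (SE 0.18), and -0.05 without RvD1 replicate 1.

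Of the 10 tested ADAM genes, 9 were above 0 with a median of 0.10, and 6 without RvD1 replicate 1. Adam23, which lacks a working protease site, had a value of 0.63 (SE 0.25, edgeR unadjusted p = 0.0347) with TPM of 8.14, 5.96 and 4.73 against 4.36, 3.26 and 2.19, without overlap. Its value was 0.44 (unadjusted p = 0.107) without RvD1 replicate 1. Adam10 and Adam17, the main sheddases at 65.2 and 56.7 TPM, had values of 0.05 (SE 0.09) and 0.02 (SE 0.08), and Adam9 had 0.12 (SE 0.10). The astacin proteases Bmp1 and Tll1 had 0.25 (SE 0.24) and -0.50 (SE 0.54), and -0.12 and -0.23 without RvD1 replicate 1.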

How the data were processed

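RNA-Seq was performed on sorted MuSCs of 3 RvD1 and 3 vehicle mice. The authors aligned reads to mm10 with STAR 2.5.0a and quantified genes with RSEM, and deposited 1 table each of expected counts, TPM and FPKM, which are the units used here. The annotation and the RSEM version are not given in the sources used here. Library totals of 16148026 to 28149176 expected counts set the precision of low genes. Counts were rounded to whole numbers, 1 stray header line was removed, genes were filtered with filterByExpr and CPM were scaled by TMM. The main test was edgeR 4.0.16 (glmQLFit, glmQLFTest, no covariate) with Benjamini-Hochberg adjustment over all 14494 genes tested, run in R 4.3.3. On simulated counts with 200 genes changed 4-fold, it recovered 171 and made 14 false calls. Smaller changes, or a shift of 1 library like that of RvD1 replicate 1, were not simulated. The study used limma-voom after removing surrogate variables, which was run as an alternative (limma 3.58.1, sva 3.50.0), as was DESeq2 1.42.0. Removing them beforehand leaves the test with too many degrees of freedom, so edgeR was the main test. TPM and FPKM were tested with limma on log2(value + 1). Scaling, filters, pseudocounts, a replicate block and leaving out each library were also varied.

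Every member with a mean of 10 or more counts was named. Others were named only with at least 1 count in all 3 libraries of a group. Per-library values were given for members with an unadjusted p under 0.05, groups that did not overlap, or the 3 largest mean TPM of a family. Those of Adamts5 were given outside this rule, as were the counts of Mmp28, Adamts16 and Adamts17. From each pathway list the 2 genes with the smallest p and the 2 with the largest TPM were named. A change of sign of a log2 fold change within its SE was counted but not taken as a reversal. Counts above 0 used the sign of every log2 fold change, and 20 of the 34 tested members were beyond their SE. Members and lists were chosen with earlier results of these data known. Gene positions came from GENCODE M21 (GRCm38), where all 51 members matched by ID. The labels do not pair replicates across groups, and p-values measure the spread between these mice. Exons of some tested members, among them Mmp11, Mmp19, Adamts7, Adamts8, Adamts9, Timp3 and Timp4, overlap another gene on the other strand, which the kit does not mark, so their values are less certain.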

Additional observations from a re-analysis of the deposited data

How the results depend on the processing

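The 20 alternatives left 19 of the 34 members with the same sign throughout, and 3 of the other 15 had a log2 fold change beyond its SE in the reported fit. Members under an unadjusted p of 0.05 numbered 5 as reported, 9 of 46 with no filter on low counts (19.6%, against 4.29% of all genes), 12 of 46 with limma-voom after surrogate variables were removed (26.1%, against 11.2%), 3 with log2(FPKM + 1) (8.82%, against 3.88%) and 2 of 46 with log2(TPM + 1) over every gene above 0 (4.35%, against 4.39%). Leaving out 1 library gave 3 to 11 (8.57% to 31.4%, against 1.90% to 6.83% of all genes). There were 11 without RvD1 replicate 2 and 3 without either RvD1 replicate 1 or vehicle replicate 2. Groups that did not overlap numbered 8 as reported, and 5 on TPM with either pseudocount (14.7%, against 11.4% of all genes) or with every gene above 0 (10.9%, against 8.73%). With 1 library left out they numbered 8 to 17 (17 without RvD1 replicate 2), or 22.9% to 48.6% of members. The share of all genes rose too, to 15.2% to 23.3% from 9.62% in the main fit. The median log2 fold change of members was 0.021 without RvD1 replicate 1, 0.52 without RvD1 replicate 2 and between these otherwise. With no filter on low counts, 12 genes (5 higher) had an adjusted p under 0.05 by edgeR, among them 1 member, Mmp19 (adjusted p = 0.0132). Its adjusted p was otherwise 0.238 to 1.00 and its log2 fold change 1.03 to 1.98. That of Adamtsl3 ran from 0.48 to 1.67, with a lowest adjusted p of 0.0642. Leaving out 1 library gave 0 to 1 genes (1 without RvD1 replicate 3) and 0 members.

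Signs turned for Mmp14 (-0.072 to 0.56) and Adamtsl4 (-0.17 to 0.94) over the fits that left out 1 library, in each case without RvD1 replicate 1. Timp4 turned to 0.17 on log2(TPM + 1) with either filter, 0.47 on log2(TPM + 0.1) and 0.10 on log2(FPKM + 1). The cause was not tested. Deviations from the group mean correlated at 0.374, 0.0111 and 0.184 between same-numbered libraries (replicates 1, 2 and 3). For different numbers the mean was -0.0961. Deviations cancel within a group, which ties that mean to the same-number values, so it is no independent baseline. The labels do not pair replicates, so the numbers were not taken as pairs in the main fit. Whether they share a batch was not tested. A replicate block called 0 genes after adjustment and 896 unadjusted (6.18% of all genes, against 3.47% in the main fit). It placed 7 of 34 members (20.6%) under an unadjusted p of 0.05, with a member median of 0.25. With 3 libraries a group, members at a few CPM had wide errors, and 3 counts in a library corresponded to 0.107 to 0.186 CPM.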
